A study of Mus musculus with 8 samples.

Results

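Lyve1-low C1q+ macrophages are the macrophages of inguinal white fat that carry complement C1q transcripts and hold few or none of the Lyve1-set transcripts that mark the Lyve1+ perivascular class. A cell was taken as a member when its 3 C1q transcripts (C1qa, C1qb and C1qc) summed to at least 5 UMIs, when Lyve1, Folr2, Cd209f and Fcna together gave at most 1 UMI, and when Pdgfra, Pecam1, Cd3e and Cd79a were all at 0. A UMI is a molecular tag that marks 1 captured transcript. By this rule 861 of 36370 cells were members, against 3110 Lyve1+ C1q+ macrophages, in which the 4 Lyve1-set genes gave at least 2 UMIs. Because the members were chosen on measured counts of 11 genes, the levels of those genes and every contrast with the Lyve1+ class are given as descriptions, with no test. At the edges of the rule, 40 members had a C1q sum of 5 and 261 had 1 Lyve1-set UMI, while 47 cells fell just outside with a C1q sum of 4 and 223 with a Lyve1-set sum of 2.

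The cells came from the stromal vascular fraction of iWAT, the inguinal white adipose depot, of C57BL/6 mice aged 8 weeks per the labels, and the study's own text describes C57BL/6J males that were older and had been kept on the regimen for longer. Mice of the Ad-Lib group ate freely, mice of the TAN group were fed at set times 2 times each night, and no other treatment, transgene or deletion is named for either group. Each group had 4 droplet libraries, numbered 1, 3, 5 and 7 for Ad-Lib and 2, 4, 6 and 8 for TAN. The study reports that lymph nodes were removed from the fat. The labels name no batch. The replicates are animals by the study's text, so each library was taken to hold a single mouse, although the labels do not tie libraries to mice.

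Macrophages of fat take up dead cells, lipid and iron and release chemokines, the small proteins that draw other leukocytes in. Lyve1+ macrophages lie along vessels, express scavenger receptors and complement genes and are held to be long-lived, whereas macrophages that lack LYVE1 and keep the chemokine receptor CCR2 are held to be replaced by blood monocytes and to present more antigen on MHC class II. C1q, the first component of the classical complement pathway, is made by both kinds.

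The members numbered 146, 105, 120 and 101 in Ad-Lib 1, 3, 5 and 7 and 89, 117, 69 and 114 in TAN 2, 4, 6 and 8, with 298444 to 831494 summed UMIs per library. They were shallow cells in part. Their median depth was 5235.5, 5752, 4786.5 and 5713 UMIs in the Ad-Lib libraries and 6098, 5462, 2489 and 2917 UMIs in TAN 2, 4, 6 and 8, so TAN 6 and TAN 8 stood apart from the other 6 libraries. In all, 285 of 861 members (33.1%) had fewer than 2500 UMIs, a share of 23.6% to 32.5% in 6 libraries, 50.7% in TAN 6 and 45.6% in TAN 8. Lyve1+ cells had medians of 4335 UMIs in TAN 6 and up to 7020.5 in the others. No barcode was a member in more than 1 library, and each of the 28 library pairs shared 2 to 14 barcodes among all cells.

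Shallow members differed in content from deeper ones. Pooled over libraries, members under 2500 UMIs held 806 CPM of the resident-type chemokine gene Ccl8 (CPM, UMIs of a gene scaled to a total of 1000000), against 99.3 CPM in members at or above 2500 UMIs, and 654 against 268 CPM of the haemoglobin scavenger receptor gene Cd163. Ccr2 gave 235 and 1003 CPM, the alternative-activation gene Retnla 2091 and 8687 CPM, and Il1b, which encodes the cytokine IL-1β, 11.9 and 312 CPM. In Ccl8, Cd163, Ccr2 and Il1b the shallow members were thus nearer to the Lyve1+ class. They held more transcripts of 11 adipocyte markers (3876 against 1187 CPM), of which Fabp4 and Cd36 are not confined to adipocytes. They also held more mitochondrial transcripts (39690 against 21840 CPM). The number of genes changed in the members and the number whose change differed between the classes were therefore also taken over macrophages of at least 2500 UMIs and without TAN 6 and TAN 8, settings chosen after seeing these depths.

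The 6 marker genes proposed for the class were all present in every library. Per library, C1qa gave 2523 ± 323 CPM (SD, n = 8 libraries), Pf4 3324 ± 599, Mrc1, which encodes the mannose receptor, 974 ± 99.9, Ccl12 830 ± 358, Adgre1, which encodes F4/80, 294 ± 32.1 and the complement receptor gene C5ar1 251 ± 42.5 CPM. Apart from Ccl12, which was higher in the members in 6 of 8 libraries, the mean of each was below that of Lyve1+ cells, with C1qa at 3780 ± 387 CPM and Mrc1 at 2049 ± 261 CPM there. The markers that set the members apart from Lyve1+ cells were others, and the plot of the ratio between the classes shows them by group.

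**Figure D1:**
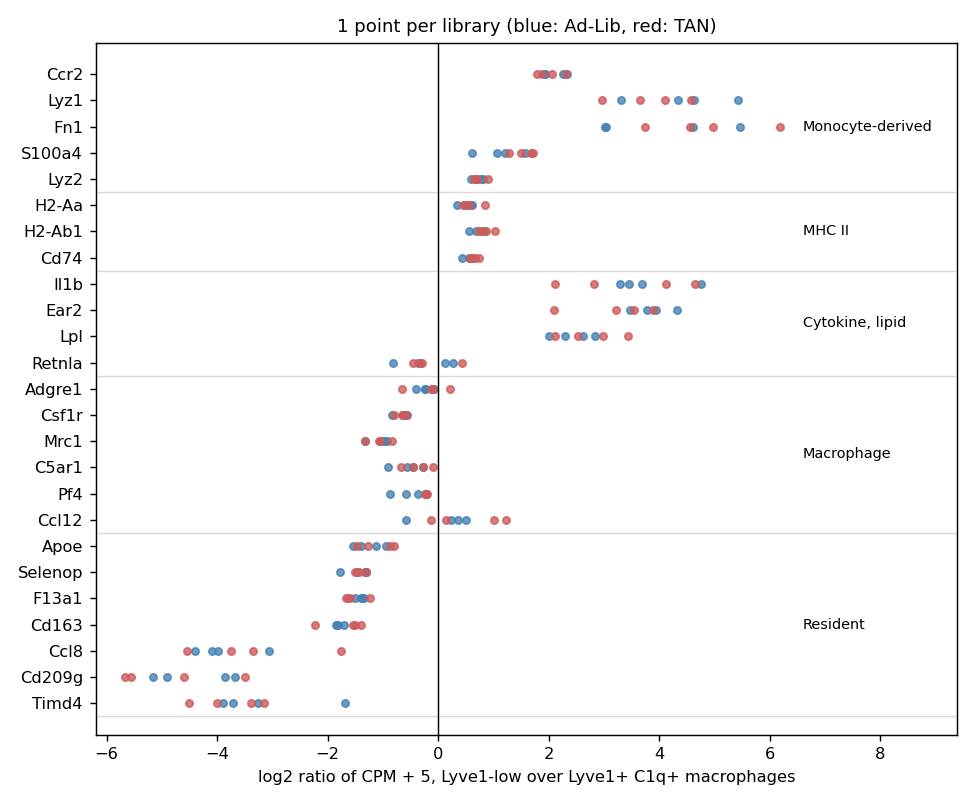
Log2 ratio of Lyve1-low to Lyve1+ C1q+ macrophages in each library, computed on CPM + 5 (x axis), for 25 genes (y axis) grouped by role. Each point is 1 library, blue for Ad-Lib and red for TAN, and the genes of the monocyte-derived and MHC II groups lie to the right of 0 in all 8 libraries while those of the resident group lie to the left.

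Most detected genes of monocytes and freshly recruited macrophages stood above the Lyve1+ class. Ccr2 gave 930 ± 150 CPM in the members and 221 ± 49.7 CPM in Lyve1+ cells (SD, n = 8), a mean log2 ratio of 2.06 on CPM + 5, and it was higher in the members in 8 of 8 libraries. The fibronectin gene Fn1 gave 788 ± 316 against 39.8 ± 36.5 CPM (4.45), and S100a4 and S100a6, which encode calcium-binding proteins of migrating leukocytes, gave 1034 and 1121 against 417 and 569 CPM. The lysozyme gene Lyz1 gave 1159 ± 380 against 62.0 ± 22.0 CPM and Lyz2 7425 ± 801 against 4477 ± 406 CPM, but the lysozyme genes are near-identical copies, so how their reads were split is uncertain. Of the 8 genes of this list that reached 20 CPM in either class, 6 were higher in the members in all 8 libraries and 0 were lower in all 8, where 11.1% and 22.3% of all 5805 genes at that level were (642 higher and 1294 lower).

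Antigen presentation genes followed the same direction at smaller ratios. Cd74, the invariant chain of MHC class II, reached 14600 ± 726 CPM in the members and 9660 ± 844 CPM in Lyve1+ cells. H2-Aa gave 7150 ± 457 against 4898 ± 672 CPM and H2-Ab1 6148 ± 293 against 3580 ± 430 CPM, both chains of the MHC class II molecule. Of 10 detected genes of this list, 8 were higher in the members in all 8 libraries and 0 were lower, with a median log2 ratio of 0.61, where the median over all genes was -0.14. In members thinned to 2000 UMIs (each cell drawn down at random to that number), 99.2% of Ad-Lib and 99.3% of TAN members kept an H2-Aa UMI.

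Among genes with pooled levels of at least 50 CPM, those with the highest ratio were Fn1, Lyz1, Il1b, Ear2, Tnip3, Ramp1, Bcl2a1d, Rgs1, Lpl, Ndnf, Bcl2a1b and Hopx, named after their values were seen, of which Bcl2a1b and Bcl2a1d are near-identical copies whose reads are split with uncertainty. Il1b gave 276 ± 92.6 against 18.5 ± 9.05 CPM, and Ear2, an eosinophil-type ribonuclease gene, 227 ± 65.4 against 17.0 ± 13.6 CPM. Lpl, which encodes lipoprotein lipase, gave 790 ± 360 against 122 ± 50.5 CPM. Ratios of Il1b, Ear2 and Lpl exceeded 2 on the log2 scale in all 8 libraries. Lipid-associated macrophage genes as a list were mixed, with 4 of 14 higher and 7 of 14 lower in all 8 libraries. Lgals3 (galectin-3) was among the former with 705 against 307 CPM, while the lipid carrier gene Apoe, at 4769 ± 1056 against 10610 ± 860 CPM, and the cathepsin gene Ctsb, at 1271 against 2846 CPM, were among the latter. Trem2, the lipid receptor that names lipid-associated macrophages, was at 69.9 ± 17.4 CPM in the members and 70.6 ± 17.9 CPM in Lyve1+ cells, and Spp1 was at 2.84 CPM.

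Resident macrophage genes that the rule did not use were lower in the members. All 14 detected genes of the resident perivascular list were below Lyve1+ cells in 8 of 8 libraries, with a median log2 ratio of -1.68. Cd209g, a C-type lectin gene beside those of the rule, gave 25.4 ± 16.4 against 669 ± 144 CPM, the chemokine gene Ccl8 159 ± 87.5 against 1890 ± 524 CPM, and Timd4, the phosphatidylserine receptor gene of long-lived macrophages, 5.503 ± 8.23 against 92.9 ± 9.94 CPM. Cd163 gave 305 ± 56.2 against 1017 ± 121 CPM, the selenoprotein P gene Selenop 1741 ± 195 against 4676 ± 325 CPM and the coagulation factor gene F13a1 709 ± 72.5 against 1977 ± 230 CPM. Vsig4 was at 0 in all member libraries, and Timd4 was at 0 in 1 of them. Complement genes other than C1q were also lower, 7 of 9 in all 8 libraries, for example C4b at 101 against 690 CPM, and so were 10 of 13 scavenger and 7 of 10 iron-handling genes. With members of at least 2500 UMIs only, the median log2 ratios were 1.42 for the monocyte list, 0.62 for MHC class II and -1.77 for the resident list.

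Several of these genes had a UMI in a part of the members. Of the 576 members with at least 2500 UMIs, 410 (71.2%) had a Ccr2 UMI, 280 (48.6%) a Retnla UMI, 143 (24.8%) an Fn1 UMI and 117 (20.3%) an Il1b UMI. These cells were not matched in depth. Lymphocytes without thinning gave means of 33.6% and 8.47% for Ccr2, 21.8% and 11.7% for Retnla and 2.15% and 0.722% for Il1b in Ad-Lib and TAN libraries, and no such share was taken for Fn1. Retnla, which encodes a secreted protein of alternatively activated macrophages, gave 8106 ± 2099 CPM, close to its level of 8982 ± 1114 CPM in Lyve1+ cells. At 2000 UMIs it was in 40.3% of Ad-Lib and 32.6% of TAN members, against 71.9% and 66.4% of Lyve1+ cells. UMIs of both Mki67 and Top2a, genes used by dividing cells, were in 27 (4.69%) of the deep members. Ly6c2, which marks classical blood monocytes, was in 1.25% of Ad-Lib and 1.36% of TAN members at 2000 UMIs. Lyve1+ cells gave 0.18% and 0.264%. Lymphocytes, at 24.6% and 13.2%, were far above both macrophage classes and set no background for this gene. With so few positive members, Ly6c2 is not read as expression. A separate gate for monocytes took 207 cells whose level of the progenitor gene Dcn ran from 0 to 5740 CPM between libraries, so no monocyte class was compared.

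Markers of other cells were also measured in the members, with those of adipocytes and red blood cells the highest. Over 11 adipocyte markers, 5 of which reached 20 CPM and 0 of which were at 0 throughout, the members held 898 to 1574 CPM in the Ad-Lib group and 1468 to 2028 CPM in the TAN group, against 141 to 704 and 480 to 734 CPM in lymphocytes. Fabp4, which macrophages also make, and Cd36, also listed here as a scavenger receptor gene, led these markers at 668 and 454.5 CPM. Lyve1+ cells gave 420 and 871 CPM of them. The 9 progenitor markers gave 221 to 633 and 202 to 556 CPM, with the Dcn gene at 22.4 to 196 CPM, and 7 endothelial markers gave 38.9 to 68.2 and 46.1 to 93.8 CPM. B cell markers gave 245 to 343 CPM, most of it Ighm at 229 CPM, followed by Cd79b at 27.9 and Igkc at 19.1 CPM, with Pax5 at 0, and T cell markers gave 10.9 to 63.0 CPM. Dendritic cell markers gave 59.4 to 147 CPM, neutrophil markers 78.5 to 233, Schwann cell markers 40.6 to 224 with Sox10 at 0, pericyte and smooth muscle markers 6.01 to 174, mast cell markers 0 to 6.22 and red blood cell markers 9.81 to 2462 CPM.

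To determine whether TAN feeding altered the abundance of these cells, their share was taken per library. Of all cells kept, members made up 2.84%, 2.15%, 3.16% and 2.72% in Ad-Lib 1, 3, 5 and 7 and 2.06%, 2.38%, 1.22% and 2.91% in TAN 2, 4, 6 and 8. The groups overlapped, at 2.72% ± 0.423 and 2.14% ± 0.706 (SD, n = 4 each; exact two-sided permutation p = 0.229). Lymphocytes numbered 1196 in the Ad-Lib and 3530 in the TAN libraries. Over cells other than lymphocytes the difference was -0.296 points (exact permutation p = 0.514, n = 4 each), and 0.0112 points without TAN 6. Over all cells the difference of -0.574 points was -0.268 without TAN 6 and -0.254 with a Lyve1-set sum of 0, and -1.26 with the rule on cells thinned to 2000 UMIs (exact permutation p = 0.0857, n = 4 each). Of all C1q+ macrophages, members made up 16.6%, 20.3%, 23.0% and 18.2% in Ad-Lib and 22.0%, 31.0%, 22.6% and 27.7% in TAN libraries. Here the TAN values were the higher ones but for Ad-Lib 5, which lay above TAN 2 and TAN 6. The means were 19.5% ± 2.76 and 25.8% ± 4.32, a difference of 6.31 points that did not pass the test (exact permutation p = 0.0857, n = 4 each; 0.257 after Benjamini-Hochberg adjustment over 3 shares; the smallest p this design allows is 0.0286). When the rule was applied to cells thinned to 2000 UMIs the values were 27.4% ± 1.54 and 33.0% ± 4.82 (exact permutation p = 0.0286, n = 4 each, unadjusted). Thinning removes Lyve1-set UMIs as well, so Lyve1+ cells can become members by this rule. Ad-Lib 1, for example, gave 203 members by it, against 146 by the main rule.

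**Figure D2:**
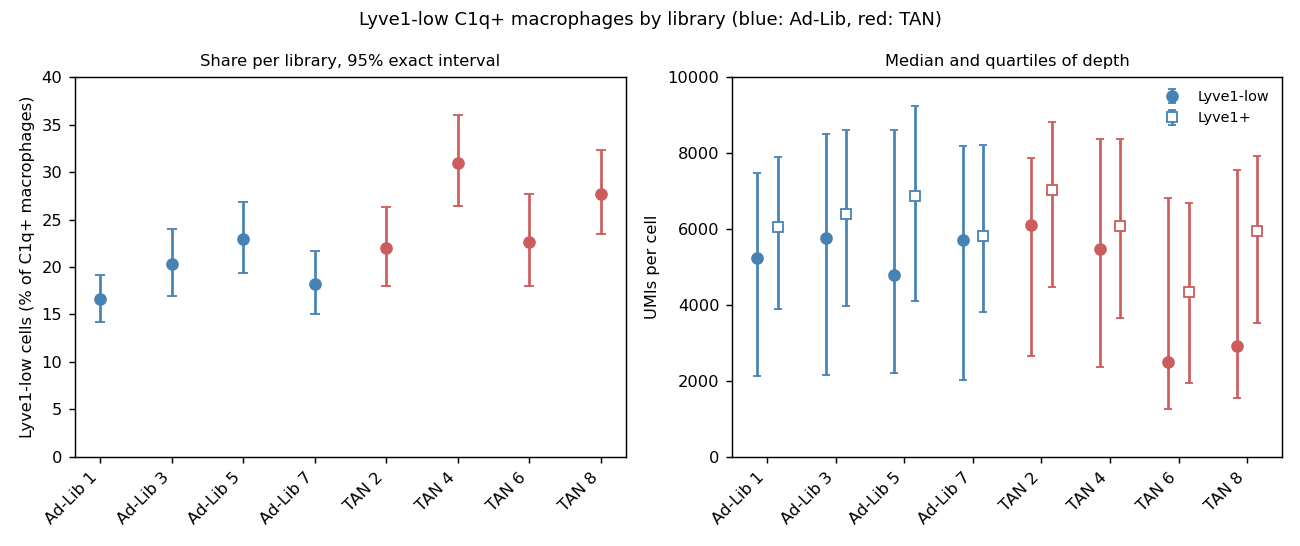
Left, Lyve1-low cells as a share of C1q+ macrophages in each library (y axis, %) with the 95% exact binomial interval, which covers counting error only. Right, median UMIs per cell with quartiles for Lyve1-low (filled) and Lyve1+ (open) cells, where the Lyve1-low medians of TAN 6 (2489) and TAN 8 (2917) lie below the others.

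To ask which genes changed with TAN feeding inside the members, UMIs were summed per library and compared by edgeR's quasi-likelihood test. Of 5980 genes tested, 20 (0.334%) were called at an adjusted p under 0.05 with at least a 1.5-fold change, 13 (0.217%) higher and 7 (0.117%) lower in TAN. The higher genes included 3 genes of inflammatory chemokines, Ccl12, Ccl3 and Ccl4, the cell cycle gene Ccnd1, and Thrsp and Fasn of fatty acid synthesis. The lower ones included Tsc22d3, a glucocorticoid target, and the transcription factor gene Klf4. In 16 of the 20 the TAN libraries did not overlap the Ad-Lib libraries, as in 303 (5.07%) of all genes tested. At an unadjusted p under 0.05, 321 genes (5.37%) were higher and 316 (5.28%) lower, and the median log2 change over all genes was 0.00. Without TAN 4 there were 11 calls (9 higher, 2 lower) and without Ad-Lib 5 there were 31 (18 and 13), and the split was 10 and 10 over members of at least 2500 UMIs and 18 and 29 with the rule on thinned cells.

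The chemokine genes that rose attract monocytes (Ccl12, a ligand of CCR2) or monocytes, T cells and natural killer cells (Ccl3 and Ccl4). Ccl12 (chr11:82101845-82103400, plus strand, GRCm38) gave 540, 381, 485.4 and 665.2 CPM in Ad-Lib 1, 3, 5 and 7 and 1125, 1025, 1374 and 1046 CPM in TAN 2, 4, 6 and 8. Every TAN library thus lay above every Ad-Lib library, by 2.23-fold in the fit (log2 change 1.16 ± 0.12, SE; edgeR adjusted p = 1.28e-05). Lymphocytes held at most 2.37 CPM of Ccl12 in either group, so its level there was near 0.

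Ccl4 (chr11:83662584-83664683, plus strand) gave 448.6, 307.9, 363.7 and 196.9 CPM in Ad-Lib, against 754.2, 757.9, 673.5 and 939.6 CPM in TAN libraries (log2 change 1.24 ± 0.18, edgeR adjusted p = 0.00101). Ccl3 (chr11:83647844-83649355, minus strand), its neighbour, gave 235.7, 177.3, 143.1 and 110.3 CPM in Ad-Lib, against 394.0, 381.0, 331.7 and 452.7 CPM in TAN libraries (1.23 ± 0.19, edgeR adjusted p = 0.0014). Neither gene overlapped between groups, and both were highest in TAN 8. Lymphocytes, which also transcribe Ccl4, gave 128 to 559 CPM in Ad-Lib libraries and 44.0 to 194 CPM in TAN, and their Ccl3 was at 12.1 to 49.1 and 4.05 to 15.3 CPM, with overlapping groups for both and no test made. Under a rule applied to cells thinned to 2000 UMIs, the Ccl3 change was 0.81 and no longer called (edgeR adjusted p = 0.0687), while Ccl12 (0.91, edgeR adjusted p = 0.0373) and Ccl4 (0.92, edgeR adjusted p = 0.00558) were. With members of at least 2500 UMIs the log2 changes were 1.18 for Ccl12, 1.28 for Ccl4 and 1.27 for Ccl3, all called.

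The bases just before the start of Ccl12 and Ccl3 are shown because these genes rose together. They are the 250 bases before each RefSeq start on GRCm38.p6, written 5′ to 3′ on the strand of the gene, for Ccl12 at chr11:82101595-82101844 (plus) and for Ccl3 at chr11:83649379-83649628 (minus). Capitals mark TATAA, the core of the TATA box that places the transcription start, on either strand (TTATA on the other), and TGANTCA, the site of AP-1.
Ccl12: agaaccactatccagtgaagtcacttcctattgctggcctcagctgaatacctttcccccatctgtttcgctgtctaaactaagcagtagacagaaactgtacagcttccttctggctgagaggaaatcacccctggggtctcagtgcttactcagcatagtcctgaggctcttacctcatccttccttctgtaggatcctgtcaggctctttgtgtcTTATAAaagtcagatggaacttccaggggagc
Ccl3: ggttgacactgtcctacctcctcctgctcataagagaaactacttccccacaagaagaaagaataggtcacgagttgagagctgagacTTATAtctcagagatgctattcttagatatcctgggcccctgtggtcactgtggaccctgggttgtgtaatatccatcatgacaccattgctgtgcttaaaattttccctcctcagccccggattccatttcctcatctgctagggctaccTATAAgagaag
The RefSeq start of Ccl3 lies upstream of the GENCODE start in the gene position given above, and distances are counted from the RefSeq start. TATAA began 31 bases before the start of Ccl12 (overlapped by TTATA at 32) and 11 bases before that of Ccl3, with another TTATA at 162, and TGANTCA was in neither. Of all 32851 RefSeq promoters cut to the same length, 22.8% held TATAA and 6.75% TGANTCA on either strand. A match is a description of the letters only. Ccl4 and Ccnd1 had no entry in that table.

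The rise was limited to a few of the chemokine genes. Of 16 chemokine genes tested, 3 rose and 1 fell, and 5 were higher and 3 lower at an unadjusted p under 0.05, with a median log2 change of 0.00. Ccl2 and Ccl7, which lie beside Ccl12 on chromosome 11 and encode the other CCR2 ligands, gave 1237 ± 293 and 751 ± 257 CPM in Ad-Lib and 1230 ± 74.5 and 795 ± 66.2 CPM in TAN libraries (log2 changes of -0.01 ± 0.15 and 0.08 ± 0.19; edgeR adjusted p = 0.9995 and 0.929). Cxcl2, a neutrophil attractant, gave 2491 and 2317 CPM, and Ccl6 1267 and 1258 CPM. Cxcl9, an interferon-γ-induced ligand of CXCR3, was the gene that fell, from 57.7, 32.7, 768.9 and 393.7 CPM in Ad-Lib to 1.78, 19.6, 50.3 and 63.2 CPM in TAN libraries (log2 change -3.24 ± 0.71, edgeR adjusted p = 0.0459). Its groups overlapped, and Ad-Lib 5 and Ad-Lib 7 were far above the rest. With Ad-Lib 5, Ad-Lib 7 or any single TAN library left out the call was lost (edgeR adjusted p = 0.0632 to 0.147). Ccl24, an eosinophil attractant and resident-type gene, gave 236 ± 51.1 and 140 ± 23.6 CPM (-0.71 ± 0.16, edgeR adjusted p = 0.0573).

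**Figure D3:**
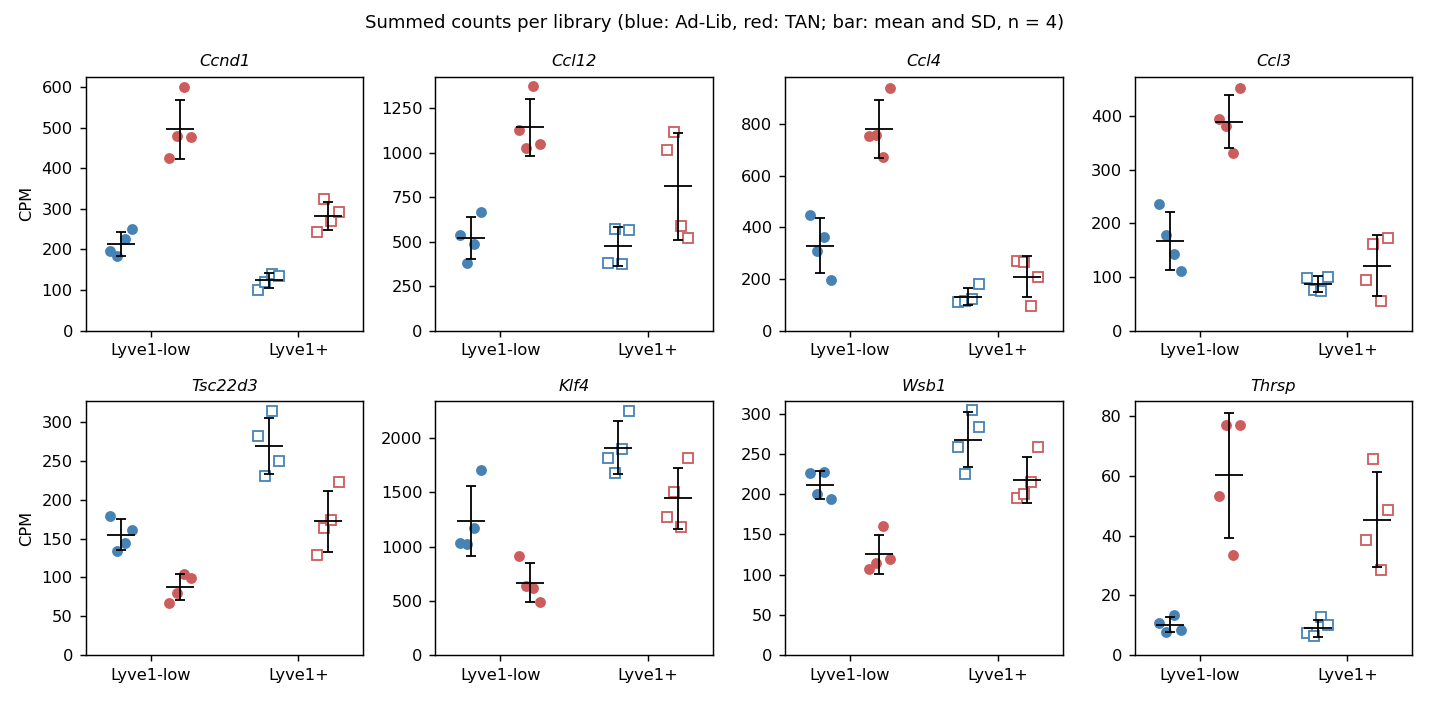
CPM of summed UMIs per library (y axis, from 0) for 8 genes called in the Lyve1-low members, in Lyve1-low (filled) and Lyve1+ (open) cells, blue for Ad-Lib and red for TAN. Bars give mean and SD over 4 libraries, and in the Lyve1-low cells the 4 TAN points lie on one side of the 4 Ad-Lib points for every gene drawn.

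Ccnd1, which encodes cyclin D1, the partner of CDK4 and CDK6 at entry to the cell cycle, had the lowest adjusted p. The gene (chr7:144929931-144939925, minus strand) gave 197.2, 185.0, 224.7 and 251.2 CPM in Ad-Lib, against 425.9, 479.1, 599.8 and 478.4 CPM in TAN libraries, a 2.33-fold rise (log2 change 1.22 ± 0.11, edgeR adjusted p = 2.78e-06). No library of one group reached the range of the other, and lymphocytes gave 13.3 to 61.7 CPM in Ad-Lib and 4.96 to 26.3 CPM in TAN, with overlapping groups. Genes of cell division did not move with it. None of the 7 proliferation genes tested was called or reached an unadjusted p of 0.05, with a median log2 change of -0.29. Mki67 gave 84.0 ± 77.8 CPM in Ad-Lib libraries and 63.6 ± 34.3 CPM in TAN (log2 change -0.29 ± 0.44), and its share at 2000 UMIs was 5.81% ± 2.17 and 4.69% ± 1.75 of members (exact permutation p = 0.429, n = 4 each), against 2.44% and 1.26% of lymphocytes.

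Thrsp and Fasn, a regulator of lipogenesis and the fatty acid synthase, also rose. Thrsp gave 10.8, 7.78, 13.4 and 8.49 CPM in Ad-Lib, against 53.2, 77.1, 33.5 and 76.9 CPM in TAN libraries (log2 change 2.62 ± 0.29, edgeR adjusted p = 2.52e-05). Fasn gave 6.01, 15.6, 14.7 and 15.3 CPM in Ad-Lib, against 56.8, 50.4, 40.2 and 59.8 CPM in TAN libraries (2.09 ± 0.27, edgeR adjusted p = 0.000208). The Ad-Lib levels rest on few UMIs, and both genes passed the filter on low counts through the TAN libraries, where they were high. The sizes of these ratios are thus uncertain, and the filter bears on the calls as well. With no filter on low counts both were also called. Both are abundant in adipocytes. Lymphocytes, in which no test was made, gave 0 to 26.2 CPM of Thrsp in Ad-Lib and 18.7 to 52.5 CPM in TAN libraries, and 19.6 to 41.5 and 30.6 to 52.5 CPM of Fasn, with overlapping groups for both. Shallow members held 156 CPM of Thrsp and deep members 22.6 CPM, and with members of at least 2500 UMIs Thrsp no longer passed the filter on low counts and was not tested, while Fasn was called at 2.11.

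Adipocyte markers moved with these genes. Of 5 adipocyte markers tested, 2 rose (Fabp4 and Car3) and 4 were higher at an unadjusted p under 0.05, with a median log2 change of 0.73. Fabp4, the adipocyte fatty acid carrier, which macrophages also make, gave 494 ± 151 CPM in Ad-Lib libraries and 842 ± 201 CPM in TAN (log2 change 0.77 ± 0.16, edgeR adjusted p = 0.0235), with lymphocytes at 78.2 to 381 and 334 to 415 CPM. Car3, an abundant carbonic anhydrase of fat cells, gave 100 ± 45.8 and 195 ± 31.1 CPM (1.00 ± 0.21, edgeR adjusted p = 0.033). The groups overlapped in both genes. The Fabp4 call was lost when Ad-Lib 1, 3 or 7 or TAN 4, 6 or 8 was left out and the Car3 call when Ad-Lib 1, 3 or 7 or TAN 2, 4 or 8 was, with edgeR adjusted p up to 0.692 and 0.243 over all alternatives. With members of at least 2500 UMIs the Fabp4 change was 0.38 (edgeR adjusted p = 0.641), whereas Car3 was still called. The part of adipocyte RNA in the rise of Thrsp and Fasn was not tested. Other genes of sterol and fatty acid synthesis gave no call: of 11 tested, Fasn was the one that rose, 2 were higher and 2 lower at an unadjusted p under 0.05, and the median log2 change was -0.19.

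A gene that responds to glucocorticoids was also among the calls. Tsc22d3, which encodes the glucocorticoid-induced leucine zipper GILZ (chrX:140539528-140600659, minus strand), fell from 179.2, 133.7, 144.4 and 161.2 CPM in Ad-Lib to 67.4, 79.9, 103.9 and 99.1 CPM in TAN libraries (log2 change -0.83 ± 0.15, edgeR adjusted p = 0.00891). The groups did not overlap, and lymphocytes gave 146.5 to 261 CPM in Ad-Lib, against 100.5 to 149.6 CPM in TAN. The call was lost without TAN 4 (edgeR adjusted p = 0.0556) and in members with a Lyve1-set sum of 0 (-0.74, edgeR adjusted p = 0.117). It was the single call among 10 glucocorticoid-responsive genes, of which 9 had a negative and 1 a positive log2 change, 5 were lower at an unadjusted p under 0.05 and the median was -0.48. Sgk1, a kinase gene of the same response, gave 44.6 ± 14.1 and 18.1 ± 8.78 CPM (-1.38 ± 0.32, edgeR adjusted p = 0.0628), and the clock gene Per1 48.1 ± 12.8 and 29.3 ± 7.44 CPM (-0.62 ± 0.24, edgeR adjusted p = 0.321). None of 8 clock genes was called, with 2 lower at an unadjusted p under 0.05 and a median of -0.42.

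Klf4, a transcription factor gene of alternative macrophage activation and an early-response gene, fell from 1032, 1023, 1173 and 1711 CPM in Ad-Lib to 915.7, 638.8, 616.5 and 488.6 CPM in TAN libraries (log2 change -0.84 ± 0.17, edgeR adjusted p = 0.02). The groups did not overlap, with TAN 2 nearest to the Ad-Lib libraries. The call was lost in 7 of 19 alternatives, among them those without Ad-Lib 7 or TAN 4, 6 or 8 (edgeR adjusted p = 0.0567 to 0.0828). Without both TAN 6 and TAN 8 the log2 change was -0.57 (edgeR adjusted p = 0.261), with a Lyve1-set sum of 0 it was -0.77 (edgeR adjusted p = 0.0665), and DESeq2 gave -0.85 (adjusted p = 0.15). Klf4 was the single call of 10 genes tested of the IL-4 and STAT6 response, and at an unadjusted p under 0.05 it was the 1 lower gene while 2 were higher. Retnla gave 8628 ± 2793 CPM in Ad-Lib libraries and 7584 ± 1324 CPM in TAN (-0.16 ± 0.17, edgeR adjusted p = 0.79) and Mrc1 966 and 982 CPM. Among 20 immediate early and dissociation genes, 0 were called at 1.5-fold, with 2 higher and 4 lower at an unadjusted p under 0.05.

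All 13 mitochondrially encoded genes had a positive log2 change, and 11 were higher at an unadjusted p under 0.05. One was called, mt-Nd4l, a subunit of respiratory complex I, which gave 233 ± 27.7 CPM in Ad-Lib libraries and 363 ± 50.3 CPM in TAN (log2 change 0.65 ± 0.11, edgeR adjusted p = 0.00842). The list's median was 0.34 in the members and 0.34 in Lyve1+ cells, and its summed level was 18190 to 24290 CPM in Ad-Lib, against 22330 to 31290 CPM in TAN members. The mt-Nd4l change fell short of 1.5-fold alone with members of at least 2500 UMIs (0.56, edgeR adjusted p = 0.0259) and with a mitochondrial limit of 5% (0.53, edgeR adjusted p = 0.0469). It missed the adjusted p too with a C1q sum of at least 10 (0.52), with the rule on thinned cells (0.45) and without TAN 6 and TAN 8 (0.57), at edgeR adjusted p = 0.0597, 0.0687 and 0.164. This list is also used as a measure of cell quality, whose part in the result was not tested.

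The remaining calls had varied functions. Mid1, a microtubule-bound ubiquitin ligase gene at the edge of the pseudoautosomal region (chrX:169685199-170005736, plus strand), rose from 32.5, 14.0, 17.4 and 28.9 CPM to 71.0, 68.6, 53.6 and 117.9 CPM (log2 change 1.78 ± 0.26, edgeR adjusted p = 0.00101), and lymphocytes gave 4.37 to 10.3 CPM in Ad-Lib and 16.2 to 43.5 CPM in TAN, with no test made. G530011O06Rik, an RNA gene transcribed from the opposite strand within Mid1 (chrX:169975043-169978917, minus strand), gave 104 ± 43.3 and 286 ± 137 CPM with overlapping groups (1.503 ± 0.28, edgeR adjusted p = 0.0133), and reads of the pair may not have been fully told apart. Basp1, a membrane-bound cytoskeletal regulator gene, and the tubulin gene Tubb2a had log2 changes of 0.74 ± 0.14 and 0.65 ± 0.14 (edgeR adjusted p = 0.0127 and 0.0469). Wsb1, a ubiquitin ligase subunit gene, fell from 226.1, 200.6, 227.3 and 193.5 CPM to 106.5, 114.9, 160.8 and 119.6 CPM (-0.78 ± 0.14, edgeR adjusted p = 0.00842). Clk1, a splicing kinase gene, Polr2a, the largest subunit of RNA polymerase II, and Tnfaip2, a gene induced by TNF, were lower by log2 changes of -0.67, -0.93 and -1.46 (edgeR adjusted p = 0.0235, 0.0235 and 0.0366). Each of these other than Mid1 and Wsb1 was lost without some libraries: G530011O06Rik without Ad-Lib 3 or 7 or TAN 4 or 8, Basp1 without Ad-Lib 7 or TAN 4, Tubb2a without any but TAN 8, Clk1 without Ad-Lib 3 or 7 or TAN 4, 6 or 8, Polr2a without Ad-Lib 1 or 7 or TAN 2, 4 or 8, and Tnfaip2 without Ad-Lib 3 or 5 or TAN 4, 6 or 8. Over all alternatives their highest edgeR or DESeq2 adjusted p ran from 0.0665 (Basp1) to 0.379 (Tubb2a). Ckb, mt-Cytb and Egr1 passed the adjusted p but not the 1.5-fold limit, at 0.58, 0.50 and -0.49.

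Most of the programmes that tell the members from Lyve1+ cells gave no call between the feeding groups. Of 8 monocyte and recruited macrophage genes 1 was lower at an unadjusted p under 0.05 (median -0.30), of 9 MHC class II genes 3 were lower (median -0.01), of 13 resident genes 2 were higher and 2 lower, and of 13 lipid-associated genes 1 was higher and 1 lower. Inflammatory cytokine genes gave 3 lower and 0 higher of 13 (median -0.25) and interferon-induced genes 4 lower and 0 higher of 13 (median -0.16). Il1b gave 298 ± 57.3 and 254 ± 124 CPM and Tnf 98.1 ± 25.0 and 85.8 ± 28.3 CPM. Among 20 pan-macrophage genes 2 were higher and 3 lower. Receptors and adaptors of insulin, IGF and leptin signalling (5 tested), growth factors (8), catecholamine handling (4), complement (7), iron handling (10) and scavenging (12) gave 0 calls by edgeR, and at an unadjusted p under 0.05 0, 1, 0, 2, 1 and 2 genes.

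The share of members with a transcript was compared for 10 genes at 2000 UMIs, which left 361 Ad-Lib and 271 TAN members and dropped 111 and 118 shallower ones. Ccr2 was detected in 57.2%, 64.2%, 61.1% and 59.0% of members in Ad-Lib 1, 3, 5 and 7 and in 38.9%, 53.2%, 44.8% and 54.7% in TAN 2, 4, 6 and 8. The groups did not overlap, at 60.4% ± 3.03 and 47.9% ± 7.41, but the difference did not pass adjustment over the 10 genes (exact permutation p = 0.0286, the smallest possible with n = 4 each, and 0.286 after Benjamini-Hochberg adjustment). Without Ad-Lib 1, 3, 5 or 7 the exact permutation p was 0.0571 to 0.0857, and without TAN 2, 4, 6 or 8 it was 0.0286, unadjusted. Without thinning the shares were 59.8% and 44.4%. Lymphocytes, whose median depth was 3994 to 5000 UMIs against 2489 to 6098 UMIs in the members, had 22.5% and 5.26%, and T and innate lymphoid cells can themselves express Ccr2. In CPM, Ccr2 gave 1022 ± 114 in Ad-Lib and 837 ± 128 in TAN libraries, with overlapping groups (log2 change -0.28 ± 0.10, edgeR adjusted p = 0.301).

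The other 9 shares gave no difference past the test. Retnla was in 40.3% ± 5.84 of Ad-Lib and 32.6% ± 4.28 of TAN members (exact permutation p = 0.0857, n = 4 each), with 10.7% and 5.34% of lymphocytes, and Trem2 in 13.03% ± 3.01 and 9.82% ± 0.518 (exact permutation p = 0.143). Il1b was in 12.2% ± 1.57 and 13.7% ± 5.19 (exact permutation p = 0.771), with 1.29% and 0.501% of lymphocytes, and TAN 8 was high at 21.1%. Cd163 was in 35.1% and 35.2% of members and in 1.25% and 0.507% of lymphocytes. Cd9 was in 3.97% and 2.06% of members, against 3.98% and 5.26% of lymphocytes and 1.195% and 0.665% of Lyve1+ cells. Timd4 was in 0.871% and 0.293% of members. Without Ad-Lib 7 the Ad-Lib shares were 2.44% for Cd9 and 0.434% for Timd4, and without TAN 4 the TAN share of Timd4 was 0.126%.

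**Figure D4:**
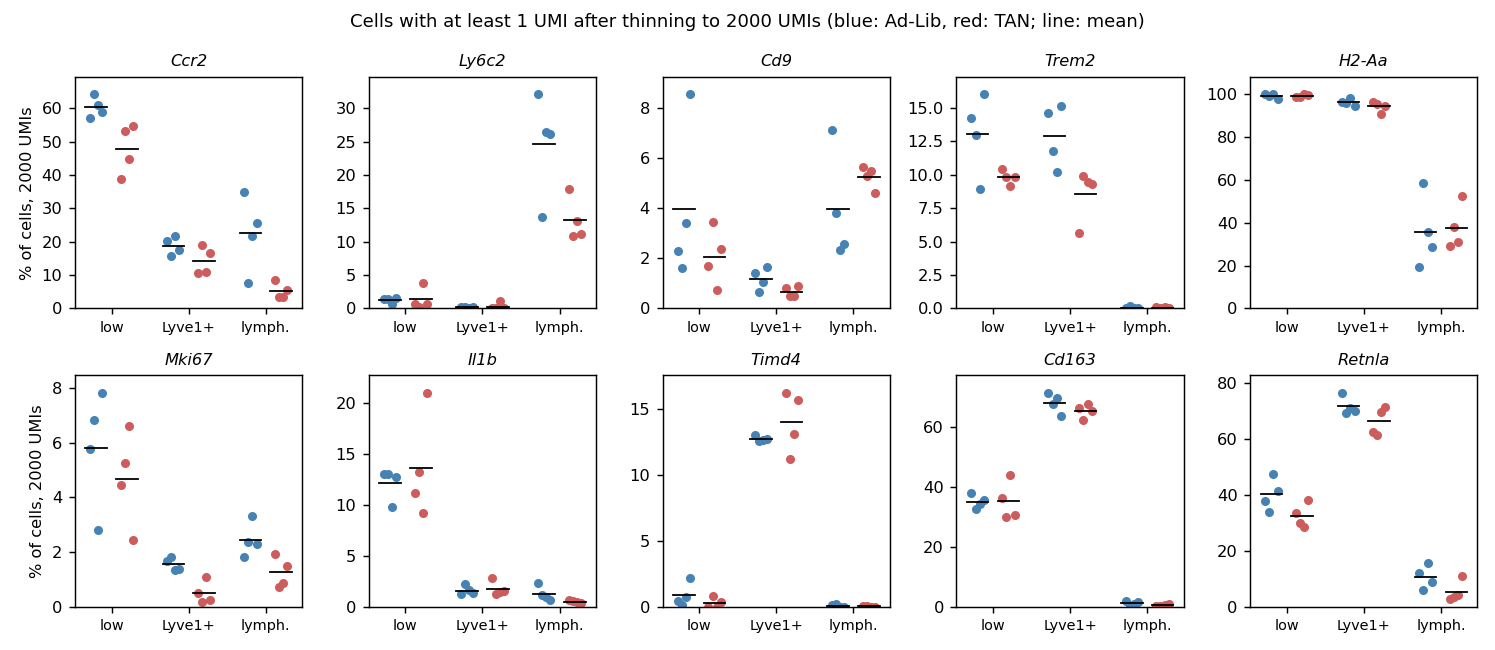
Share of cells (y axis, %) with at least 1 UMI of each of 10 genes after thinning to 2000 UMIs, per library, in Lyve1-low, Lyve1+ and lymphocyte cells, blue for Ad-Lib and red for TAN, with the group mean as a line. In Lyve1-low cells the Ccr2 points of the groups do not overlap (60.4% and 47.9% on average), while those of H2-Aa lie near 99% in both.

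To ask whether the changes were particular to the members, the same comparison was made in Lyve1+ cells and the difference of the changes was tested in a joint edgeR fit with the library as a block. Lyve1+ cells gave 30 calls of 9443 genes tested (0.318%). Ccnd1 rose there by the same log2 change of 1.20 ± 0.11 (edgeR adjusted p = 2.52e-05), and Thrsp (2.38), Fasn (1.71) and Mid1 (1.14) rose while Tsc22d3 (-0.66) and Polr2a (-0.72) fell. The chemokine genes did not pass there, at 0.80 ± 0.23 for Ccl12, 0.73 ± 0.23 for Ccl4 and 0.50 ± 0.23 for Ccl3 (edgeR adjusted p = 0.143, 0.177 and 0.401). Of 8179 genes, 0 (0%) differed in their change between the classes at an adjusted p under 0.05 by edgeR, and 408 did at an unadjusted p under 0.05. The difference was 0.79 ± 0.23 for Ccl3 (edgeR adjusted p = 0.772), 0.59 ± 0.27 for Ccl4 (0.977), 0.40 ± 0.23 for Ccl12 (0.977), -0.49 ± 0.15 for Wsb1 (0.772), -0.47 ± 0.17 for Klf4 (0.861) and 0.00 ± 0.22 for Ccnd1. The number that differed was 1 with macrophages of at least 2500 UMIs (C3), 3 without TAN 6 and TAN 8, 3 with the rule on thinned cells and 30 with no filter on low counts, so the count of 0 depended on the setting. The lowest adjusted p was that of Slc15a2, a peptide transporter gene, at 1.13 ± 0.24 (edgeR adjusted p = 0.665).

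**Figure D5:**
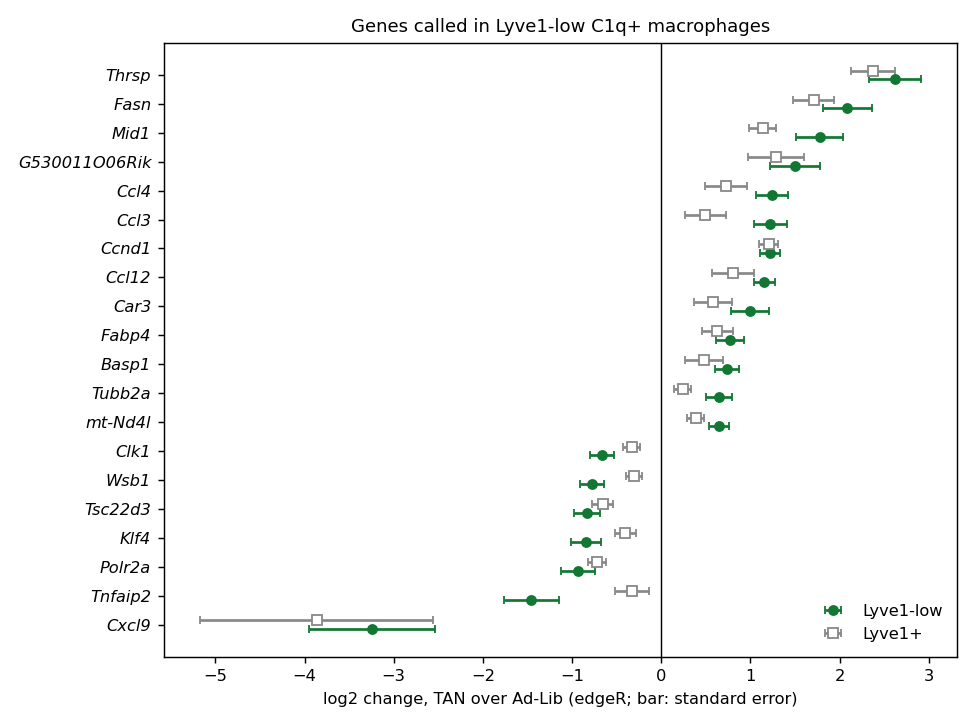
Log2 change, TAN over Ad-Lib (x axis, edgeR fit with its standard error as the bar), of the 20 genes called in Lyve1-low cells (green) and the same genes in Lyve1+ cells (grey), n = 4 libraries per group. Ccnd1 changed by 1.22 and 1.20, whereas Ccl3 gave 1.23 and 0.50.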

How the data were processed

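Droplet 3′ libraries from 4 Ad-Lib and 4 TAN samples were analysed. The authors deposited raw UMI counts per gene and barcode as filtered matrices. The submitters' processing notes name Cell Ranger 3.0.2, Seurat and GRCm38 (mm10), whereas the file headers name Cell Ranger 6.0.1. Barcodes with 700 to 30000 UMIs, 200 to 8000 genes and at most 10% mitochondrial UMIs were kept. The Lyve1+ class met the same rule with a Lyve1-set sum of at least 2. Lymphocytes, used for background, had at least 3 B cell or 2 T cell marker UMIs. Members and gene lists (32 lists, 351 genes, 230 tested) were chosen with earlier results of these data known, and 10 of the 20 genes called were in a list. For each library and class the UMIs were added up and compared with edgeR 4.0.16 (quasi-likelihood, TMM scaling, filterByExpr, Benjamini-Hochberg adjustment) in R 4.3.3. The SE was derived from the F statistic. Shares were compared by exact permutation over 70 assignments. Genes were named by a rule: calls of lowest adjusted p whose groups do not overlap (10 at most in each direction), every called gene of a list, up to 4 most abundant members per list, the markers, and the 10 genes with the smallest p for a difference between classes. The 10 genes whose shares were compared were listed with that test. Other genes outside this rule (Ckb, mt-Cytb, G530011O06Rik, Ccl7, Ccl8, Ccl24, Sgk1, Tnf, Fn1, Spp1, Cd209g, Vsig4, C4b, Pax5, Sox10, Top2a and those marked in the text) were chosen after their values were seen. Gene positions are from GENCODE on GRCm38. The doublet alternative left out 1351 cells, 11 of them members, and otherwise no doublets were removed. For a self-test, counts were drawn from the negative binomial model that edgeR assumes, with the means, dispersions and library sizes of these data. With 200 changed genes among 5980, the member comparison recovered 73.1%, 89.6% and 89.4% of genes changed by 1, 1.5 and 2 on the log2 scale, with 7 false calls. Those rates hold for the drawn counts, and real counts may depart from the model. Alternatives were other limits of the rule, RLE scaling, no filter, DESeq2 1.42.0 and each library left out. Intervals cover counting error only.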

Additional observations from a re-analysis of the deposited data

Results flagged for a closer look

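In 64 groups of 4 libraries tested for a library far from the others by Dixon's criterion, 3 were flagged, where chance gives about 1 in 20. Fasn was at 6.01 CPM in Ad-Lib 1 and at 14.7 to 15.6 CPM in the other Ad-Lib libraries. The share of members with an Il1b UMI at 2000 UMIs was 9.83% in Ad-Lib 5 and 12.7% to 13.1% in the other Ad-Lib libraries. The share with a Ly6c2 UMI was 3.79% in TAN 6 and 0.246% to 0.733% in the other TAN libraries. In Lyve1+ cells it was 1.06% in TAN 6 and 0% in TAN 2, 4 and 8.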

How the results depend on the processing

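No called gene changed direction in the up to 19 alternatives run for it. Ccnd1, Ccl12, Fasn, Ccl4, Mid1 and Wsb1 were called in 19 of 19 and Thrsp in 18 of 18, Ccl3 in 18, Tsc22d3 in 17, Basp1 in 15, mt-Nd4l and G530011O06Rik in 14, Klf4 in 12 and Cxcl9 and Tnfaip2 in 11 of 19, while Fabp4 was called in 6, Car3 in 8, Polr2a and Tubb2a in 9 and Clk1 in 10 of 19. Thrsp and Fasn passed the filter on low counts through the TAN libraries, and Thrsp did not pass it with members of at least 2500 UMIs. The 20 calls became 47 (18 higher, 29 lower; 14 shared) with the rule on cells thinned to 2000 UMIs and 120 (49 higher, 71 lower) with no filter on low counts. Leaving out 1 library gave 11 (without TAN 4) to 31 (without Ad-Lib 5) calls, with 13 without Ad-Lib 7. Members of at least 2500 UMIs gave 20 calls (10 higher, 10 lower; 15 shared), and leaving out both TAN 6 and TAN 8 gave 16 (12 higher, 4 lower), both alternatives chosen after seeing the data. DESeq2 gave 18 calls with 1392 adjusted p not given. The genes whose change differed between classes numbered 0, but 30 with no filter on low counts, 3 with the thinned rule (Cd55, Ccn1 and C3), 1 with at least 2500 UMIs (C3), 3 without TAN 6 and TAN 8 (Rgs1, Ccl5 and C3) and 0 to 1 with 1 library left out. The cause was not tested. The difference in the share of C1q+ macrophages, 6.31 points, was 5.63 with the thinned rule (exact permutation p = 0.0286, n = 4 each), and not past 0.05 in the other alternatives, at 4.58 to 7.60 with 1 library left out. That thinned rule can take in Lyve1+ cells, since thinning removes Lyve1-set UMIs. Over cells other than lymphocytes the members were 2.89% and 2.60% (exact permutation p = 0.514), a difference that was 0.0112 without TAN 6 and down to -0.583 without TAN 8. The Ccr2 share difference of -12.5 points ran from -14.7 to -9.46 with 1 library left out. No paired analysis was possible because the Ad-Lib and TAN libraries share no replicate number. Cell numbers of 69 to 146 per library limit what can be seen for genes of low level.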

Other observations

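Members with a Ccr2 UMI had a Retnla UMI more often than members without one. Of the 410 members with at least 2500 UMIs and a Ccr2 UMI, 57.6% also had a Retnla UMI, against 26.5% of those without Ccr2, and the share was higher in 8 of 8 libraries, from 47.4% to 69.2% against 6.67% to 44.4%. Of the 117 members with an Il1b UMI, 104 had a Ccr2 UMI. Cells with more UMIs detect more genes and the cells were not matched in depth here, so these shares are descriptions. Ear2 was in 23.8% and Lyz1 in 27.3% of the deep members, and at least 20 Retnla UMIs were in 27.1%.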
